A study of Rattus norvegicus with 8 samples.

Results

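The genes described here encode the semaphorins, ephrins, Slits and netrins, which are secreted or membrane-bound guidance cues, together with their plexin, neuropilin, Eph, Robo, Dcc and Unc5 receptors. Members were taken by symbol from the platform annotation: any gene whose symbol begins with Sema, Plxn, Efna, Efnb, Epha, Ephb, Robo or Unc5, or with Slit or Ntn and a number, and in addition Nrp1, Nrp2 and Dcc. This gave 56 of the 14506 genes tested, namely 16 semaphorins, 2 neuropilins, 5 plexins, 7 ephrins, 11 Eph receptors, 3 netrins, 6 genes of the Dcc and Unc5 group, 2 Slits and 4 Robo receptors. The symbol rule also took in Unc50, a membrane protein gene unrelated to netrin receptors, and Unc5cl, whose product resembles the inner part of Unc5 receptors. A further 15 protein-coding genes of RefSeq meet the symbol rule but had no probe set with a single symbol and are not analysed here.

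Guidance cues were first described in axons, which they attract or repel, and the same cues act on endothelial cells, vascular smooth muscle and neural crest. Class 3 semaphorins are secreted and act through neuropilins and plexins, ephrins and Eph receptors signal between touching cells in both directions, Slits act through Robo receptors, and netrins through Dcc and Unc5 receptors. In mice, Sema3c and plexin-A2 are known from the cardiac neural crest that builds the outflow tract and the arch arteries, ephrin-B2 marks arterial endothelium, and neuropilin-1 also binds vascular endothelial growth factor.

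The samples were the ductus arteriosus (DA), the fetal shunt between pulmonary artery and aorta that closes after birth, and the aorta, both dissected from full-term rat neonates of the Brown-Norway (BN) and Fischer344 (F344) strains 1 h after birth. The 4 groups, BN DA, BN aorta, F344 DA and F344 aorta, held 2 Affymetrix Rat Gene 1.0 ST arrays each, and no animal is labelled as treated or mutant. BN is an inbred strain in which the ductus tends to close late. RNA was extracted from pooled tissues, and nothing in the labels says that replicates came from separate litters or animals, and the p-values therefore reflect the spread among the arrays alone, which may be technical. Values are log2 RMA values, on which a difference of 1 is 2-fold. Values of different genes come from different probes and are not compared with each other. A gene was called at an adjusted p under 0.05 in limma, adjusted with the Benjamini-Hochberg method over all 14506 genes, and the number of arrays limits the precision.

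The arrays differed in ways that touch the results below. The SD over all genes of the difference between replicates was 0.349 in BN DA, 0.258 in BN aorta, 0.223 in F344 DA, then 0.196 in F344 aorta. Of the 56 guidance genes, 9 differed by over 0.5 between the BN DA replicates, 3 in BN aorta, 1 in F344 DA and 2 in F344 aorta. The largest such gap was 1.01, for Unc5c in BN DA. Thymocyte and lymphocyte markers (8 genes) averaged 7.14 on BN DA replicate 1, while no other array exceeded 6.10. Cardiomyocyte markers (7 genes) averaged 7.49 on BN DA replicate 2, with at most 6.99 on the others. The mean of 6 smooth muscle markers, Acta2, Myh11, Tagln, Cnn1, Myocd and Smtn, lay between 11.82 and 12.24 on every array.

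Within F344, 10 guidance genes (17.9%) were called between DA and aorta, against 14% of all genes. Sema3a and Sema3d were higher in DA, where 8.87% of all genes were, and 8 genes (Ntn1, Sema6d, Robo1, Epha3, Epha1, Sema5b, Efnb2 and Plxna2) were lower in DA, where 5.12% of all genes were. Within BN, 3 guidance genes (5.36%) were called, against 1.81% of all genes: Sema3a, Sema3d and Sema3c were higher in DA (background 0.986% higher), and 0 were lower (background 0.82%). In either direction, 14 guidance genes and 2026 of all 14506 genes had an unadjusted p under 0.05 in limma. The median difference over the 56 genes was -0.07 in BN and -0.10 in F344, and that of all genes 0 in BN and -0.04 in F344. The F344 count fell when any single F344 array was left out. Sema3a, Sema3d, Ntn1 and Epha3 were called in each of these 4 fits. The BN count fell without either BN aorta array or any single F344 array, and rose without either BN DA array. The number called among all genes in these fits is not given here. No change particular to the guidance genes can be read from these counts.

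**Figure D1:**
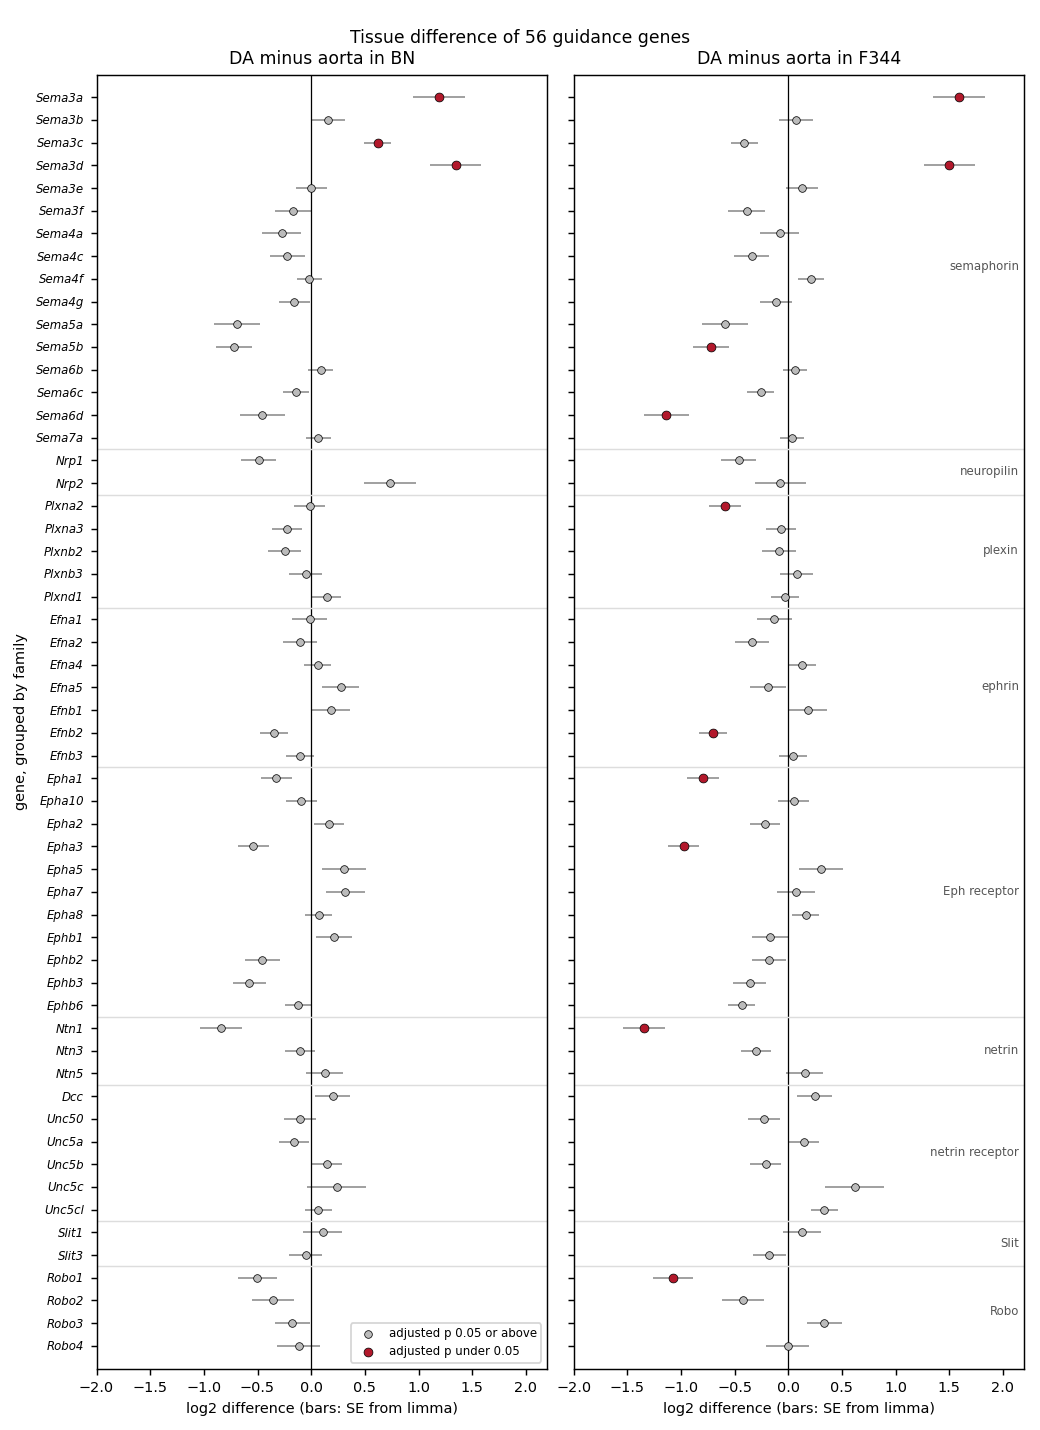
DA minus aorta in BN (left) and F344 (right) for the 56 guidance genes, grouped by family. The horizontal axis is the log2 difference, bars are SE from limma and red points have an adjusted p under 0.05. Sema3a and Sema3d lie above 1 in both strains, Sema3c lies at 0.62 in BN and -0.41 in F344, and Ntn1 has the lowest difference in both panels.

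The scale of the tissue difference depends on normalization in F344. Centring each array on brighter genes moved the median difference of all genes to 0.16 and gave 2103 genes called higher and 298 lower in F344 DA, against 1286 and 742 as deposited, and repeated quantile normalization gave 863 and 660. After centring, 3 guidance genes were called higher (Sema3a, Sema3d and Unc5cl, the last added by this setting) and 6 lower (Ntn1, Sema6d, Robo1, Epha3, Epha1 and Efnb2). The direction of the 10 called genes was the same under both scalings, and Plxna2 and Sema5b lost their call under each. Of the 56 guidance genes, 34 had a mean above that of the median gene (7.48), and their median F344 difference was -0.22, against -0.17 for all genes above it. Of these 34, 9 were called, where 9.8% of all genes above it were. The 22 guidance genes at or below it had a median of 0.07, against 0.15 for all such genes, and 1 of them, Epha1, was called, where 18.2% of all such genes were.

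The 2 genes with the largest differences were class 3 semaphorins. Sema3a, a secreted repellent of axons and endothelial cells that acts through neuropilin-1, had values of 9.39 and 8.54 in BN DA, against 7.62 and 7.93 in BN aorta, and of 9.29 and 9.30 in F344 DA, against 7.79 and 7.61 in F344 aorta. Every DA array lay above every aorta array. Its difference was 1.19 ± 0.24 SE in BN (2.29-fold, limma adjusted p = 0.0449) and 1.59 ± 0.24 SE in F344 (3.02-fold, adjusted p = 0.00353). Sema3d, a secreted semaphorin that in mice patterns veins, had values of 11.15 and 10.37 in BN DA, against 9.55 and 9.27 in BN aorta. Its values were 11.39 and 11.14 in F344 DA, against 9.90 and 9.63 in F344 aorta, so that DA and aorta again did not overlap. The differences were 1.35 ± 0.24 SE in BN (2.54-fold, limma adjusted p = 0.0286) and 1.5 ± 0.24 SE in F344 (2.83-fold, adjusted p = 0.00415). BN DA replicate 2 was the lowest DA array for both genes. All 3 calls in BN were lost without either BN aorta array, without any single F344 array and in a fit with the 4 BN arrays, whereas the 2 calls in F344 were kept under all 16 alternatives.

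Sema3c, which attracts cardiac neural crest cells in mice, had tissue differences of opposite sign in the strains, although the interaction given below was not called. It had values of 10.08 and 9.92 in BN DA, against 9.37 and 9.39 in BN aorta, and 9.45 and 9.31 in F344 DA, against 9.83 and 9.74 in F344 aorta. DA was thus above aorta on both BN arrays and below it on both F344 arrays, with no overlap in either strain. The difference was 0.62 ± 0.12 SE in BN (1.54-fold, limma adjusted p = 0.0437) and -0.41 ± 0.12 SE in F344 (adjusted p = 0.059). Without BN DA replicate 1 the BN call was lost too. The remaining class 3 genes were not called in either strain. Sema3f, a ligand of neuropilin-2, had differences of -0.17 ± 0.17 SE in BN and -0.39 ± 0.17 SE in F344, Sema3e, which binds plexin-D1 directly, 0.00 ± 0.15 and 0.13 ± 0.15, and Sema3b 0.15 ± 0.16 and 0.07 ± 0.16.

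**Figure D2:**
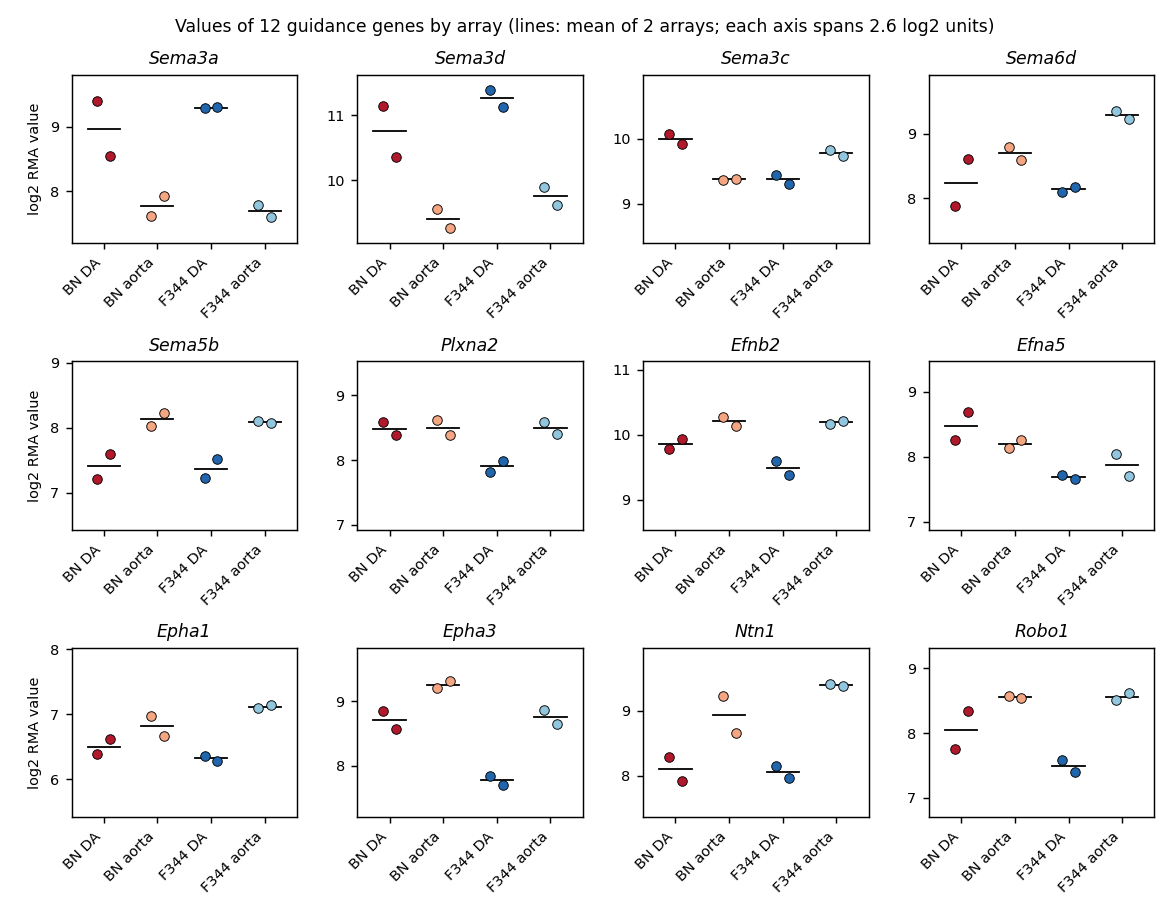
Log2 RMA value (vertical axis, spanning 2.6 log2 units in each panel) of the 12 guidance genes called in a comparison within 1 strain or 1 tissue, by group. Points are single arrays and lines the mean of 2 arrays. DA lies above aorta for Sema3a and Sema3d in both strains, and Sema3c is high in BN DA and F344 aorta.

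Sema3c, Sema3e, Sema3a and Sema3d follow each other in this order on chromosome 4 in RefSeq (GRCr8), with 4, 12 and 0 protein-coding genes between neighbours, so that the pair that was higher in DA is adjacent. Of the 20 protein-coding genes from Sema3c to Sema3d, 7 were tested. The 3 that are no semaphorins were not called between DA and aorta. Cacna2d1, a calcium channel subunit gene, had differences of 0.51 in BN and 0.39 in F344 (limma adjusted p = 0.0666 and 0.0513), Hgf, which encodes hepatocyte growth factor, -0.03 and -0.28, and Pclo 0.08 and 0.00. Hgf was higher in BN DA than in F344 DA (0.89, limma adjusted p = 0.036).

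The 250 bases before the RefSeq start site are shown for 3 of these genes. Sema3d was taken for the genes higher in DA in both strains and Sema3c for the opposite differences in BN and F344. Robo1, described below, is 1 of the genes lower in DA. Capitals mark a CArG box, the motif bound by serum response factor in smooth muscle genes, searched on both strands. It occurs in 1.5% of 33469 RefSeq promoter windows of this length. It was found 33 bases before the start of Sema3c and 63 bases before that of 1 of 2 Robo1 windows, in each case with the same 10 letters, and not in the Sema3d window. The other Robo1 window holds no CArG box and is not printed. No other gene called lower in F344 DA had the motif in a window, so Robo1 does not stand for those genes here. The genes were chosen after their values were seen, sequences are from RefSeq (GRCr8, written 5′ to 3′ on the gene's strand), and a match is a description of letters. Sema3d lies at chr4:23460972-23461221 (minus strand), Sema3c at chr4:18699628-18699877 (minus strand) and this Robo1 window at chr11:24714445-24714694 (plus strand).
Sema3d: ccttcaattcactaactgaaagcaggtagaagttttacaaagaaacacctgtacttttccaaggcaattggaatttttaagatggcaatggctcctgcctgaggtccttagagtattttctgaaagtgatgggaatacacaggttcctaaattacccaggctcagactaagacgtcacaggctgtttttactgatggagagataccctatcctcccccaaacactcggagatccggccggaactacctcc
Sema3c: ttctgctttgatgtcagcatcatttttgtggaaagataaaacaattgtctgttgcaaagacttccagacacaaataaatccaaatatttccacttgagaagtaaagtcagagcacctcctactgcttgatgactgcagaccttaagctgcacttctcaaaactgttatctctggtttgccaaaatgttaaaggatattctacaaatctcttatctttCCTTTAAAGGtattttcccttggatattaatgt
Robo1: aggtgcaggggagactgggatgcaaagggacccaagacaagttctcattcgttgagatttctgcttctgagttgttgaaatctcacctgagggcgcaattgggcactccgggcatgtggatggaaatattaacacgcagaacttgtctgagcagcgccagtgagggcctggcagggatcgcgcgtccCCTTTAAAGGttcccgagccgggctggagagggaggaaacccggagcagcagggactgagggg

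Among the 12 genes called in a comparison within 1 strain or tissue, 10 had a RefSeq promoter, with 11 windows. The CArG box was in 2 of them, the Sema3c and Robo1 windows printed above (1.5% of all windows), the E box CANNTG in 7 (65.5%), the GC box GGGCGG in 3 (30.5%), the AP-2 site GCCNNNGGC in 1, that of Sema6d (12.6%), and the TATA box TATAAA in 0 (12.9%), each searched on both strands. Each window printed above holds at least 2 E boxes and 0 copies of the GC box, the AP-2 site and the TATA box. Sema3a and Ntn1 have no entry.

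Of the 10 membrane-bound semaphorins, 2 were called lower in F344 DA. Sema6d, a transmembrane ligand of A-type plexins, had values of 7.88 and 8.61 in BN DA, against 8.80 and 8.60 in BN aorta, and of 8.11 and 8.18 in F344 DA, against 9.34 and 9.22 in F344 aorta. The F344 groups were over 1 apart, and the BN groups overlapped through BN DA replicate 2. Its difference was -1.14 ± 0.21 SE in F344 (2.2-fold lower in DA, limma adjusted p = 0.00817) and -0.45 ± 0.21 SE in BN (adjusted p = 0.385). The F344 call of Sema6d was lost without either F344 DA array and without F344 aorta replicate 1. Sema5b, which carries thrombospondin repeats, had values of 7.21 and 7.60 in BN DA, against 8.03 and 8.23 in BN aorta, and 7.22 and 7.51 in F344 DA, against 8.10 and 8.07 in F344 aorta. Its differences were alike in size, -0.72 ± 0.17 SE in BN (adjusted p = 0.07) and -0.72 ± 0.17 SE in F344 (adjusted p = 0.0207), with DA below aorta on every array. The F344 call of Sema5b was lost without any single F344 array. The related Sema5a was at 9.69 and 10.42 in BN DA, against 10.75 and 10.74 in BN aorta, and at 10.24 and 10.05 in F344 DA, against 10.83 and 10.63 in F344 aorta. It was not called within a strain, and was called lower in the average of both strains (-0.64 ± 0.15 SE, limma adjusted p = 0.0192). The other members of this group, of classes 4, 6 and 7, had differences between -0.27 and 0.09 in BN and between -0.34 and 0.21 in F344. Sema4c had a second probe set, with differences of -0.23 in BN and -0.21 in F344 beside -0.22 and -0.34 for the one used.

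Among the semaphorin receptors, 1 of 5 plexin genes and 0 of 2 neuropilin genes were called within a strain. Plxna2, which encodes plexin-A2, was at 8.59 and 8.38 in BN DA, against 8.62 and 8.38 in BN aorta, and at 7.82 and 7.98 in F344 DA, against 8.58 and 8.40 in F344 aorta. Only the F344 DA arrays stood apart, and they were low. The difference was -0.01 ± 0.15 SE in BN and -0.59 ± 0.15 SE in F344 (1.5-fold lower in DA, limma adjusted p = 0.0265), and the F344 call was lost without any 1 of the 4 F344 arrays. Plxna3 (-0.22 and -0.07) and the endothelial receptor gene Plxnd1 (0.14 and -0.03) had small differences in BN and F344. Nrp1 was not called within a strain, with differences of -0.49 ± 0.17 SE in BN and -0.46 ± 0.17 SE in F344, and was called lower in the average (-0.48 ± 0.12 SE, limma adjusted p = 0.0233). The other neuropilin gene, Nrp2, was at 8.27 and 8.53 in BN DA, against 7.32 and 8.01 in BN aorta, and 7.59 and 7.57 in F344 DA, against 7.92 and 7.39 in F344 aorta. The BN DA arrays were the highest of the 8, but the BN difference of 0.73 ± 0.24 SE was not called (limma adjusted p = 0.188).

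In the ephrin and Eph families, the genes called in F344 were lower in DA. Efnb2, the arterial ephrin gene, was at 9.78 and 9.93 in BN DA, against 10.28 and 10.13 in BN aorta, and at 9.60 and 9.38 in F344 DA, against 10.16 and 10.22 in F344 aorta. DA was below aorta on every array, by -0.35 ± 0.13 SE in BN (limma adjusted p = 0.264) and by -0.70 ± 0.13 SE in F344 (adjusted p = 0.00845). The other 6 ephrin genes had differences between -0.11 and 0.27 in BN and between -0.34 and 0.18 in F344, and none was called between tissues. Epha3, a receptor of A-type ephrins, was at 8.85 and 8.58 in BN DA, against 9.20 and 9.31 in BN aorta, and 7.85 and 7.71 in F344 DA, against 8.87 and 8.64 in F344 aorta. Here too DA was below aorta within each strain, by -0.54 ± 0.15 SE in BN (adjusted p = 0.109) and by -0.97 ± 0.15 SE in F344 (1.96-fold, adjusted p = 0.00325). Epha1 was at 6.38 and 6.61 in BN DA, against 6.98 and 6.67 in BN aorta, and at 6.36 and 6.29 in F344 DA, against 7.09 and 7.15 in F344 aorta, with differences of -0.33 ± 0.15 SE in BN (adjusted p = 0.356) and -0.79 ± 0.15 SE in F344 (adjusted p = 0.00752). The F344 calls of Efnb2 and Epha1 were lost without F344 DA replicate 2 and without either F344 aorta array, and the F344 call of Epha3 was kept under all 16 alternatives. Of the other 9 Eph receptor genes none was called within a strain. Ephb3, a receptor of B-type ephrins, was called lower in the average of both strains (-0.47 ± 0.11 SE, limma adjusted p = 0.0181), with -0.58 in BN and -0.36 in F344.

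Ntn1, which encodes netrin-1, the best known netrin in axons and vessels, had the lowest tissue difference of all 56 genes in each strain. Its values were 8.29 and 7.91 in BN DA, against 9.22 and 8.66 in BN aorta, and 8.14 and 7.96 in F344 DA, against 9.41 and 9.37 in F344 aorta. Every DA array was below every aorta array. The difference was -0.84 ± 0.20 SE in BN (1.79-fold lower in DA, limma adjusted p = 0.0751) and -1.34 ± 0.20 SE in F344 (2.54-fold lower, adjusted p = 0.00311), and the F344 call was kept under all 16 alternatives. The other netrin genes, Ntn3 and Ntn5, had differences of -0.11 and 0.12 in BN and of -0.30 and 0.15 in F344. Among the netrin receptors none was called. Unc5b, the Unc5 receptor known from endothelium, had differences of 0.14 ± 0.14 SE in BN and -0.21 ± 0.14 SE in F344, and Dcc of 0.20 ± 0.16 and 0.25 ± 0.16. Unc5c was at 8.71 and 8.45 in F344 DA, against 7.92 and 8.01 in F344 aorta (0.62 ± 0.28 SE, limma adjusted p = 0.169), while the BN DA replicates, at 7.83 and 8.84, spanned the BN aorta values of 7.96 and 8.24.

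Of the Robo receptor genes, Robo1 was called in F344. Its values were 7.76 and 8.35 in BN DA, against 8.58 and 8.54 in BN aorta, and 7.58 and 7.40 in F344 DA, against 8.50 and 8.62 in F344 aorta. DA lay below aorta on every array, by -0.50 ± 0.18 SE in BN (limma adjusted p = 0.247) and by -1.07 ± 0.18 SE in F344 (2.1-fold lower in DA, adjusted p = 0.00574), and the F344 call was lost without F344 DA replicate 2 (adjusted p = 0.0605). Robo2 had differences of -0.36 ± 0.20 SE and -0.42 ± 0.20 SE in BN and F344, and the endothelial Robo4 of -0.12 ± 0.20 and 0.00 ± 0.20. The Slit ligand genes were not called: Slit3 had differences of -0.05 ± 0.15 SE in BN and -0.17 ± 0.15 SE in F344, and Slit1 of 0.11 ± 0.18 and 0.13 ± 0.18.

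The tissue comparisons of BN and F344 share no arrays. All 10 guidance genes called in F344 had a difference of the same sign in BN, as had 1879 of the 2028 genes called among all genes, and 9 of the 10 had the larger difference in F344 (all but Sema5b), as had 1912 of the 2028. These genes were selected on the F344 difference, and both counts are given as a description. In the average of both strains, limma called 12 guidance genes (21.4%), against 16.6% of all genes. Of these, 2 were higher in DA (background 10.1%), Sema3a and Sema3d, and 10 lower (background 6.47%): Ntn1, Sema6d, Robo1, Epha3, Sema5b, Sema5a, Epha1, Efnb2, Nrp1 and Ephb3. Ephb3 lost its call without any single F344 array or BN aorta replicate 2. The calls of Nrp1 and Sema5a were lost without F344 DA replicate 2, F344 aorta replicate 1 or BN aorta replicate 1, that of Nrp1 also without BN aorta replicate 2, and those of Ephb3 and Nrp1 under both scalings and of Sema5a after centring. Centring gave 2048 genes called higher and 437 lower among all genes, against 1464 and 939 as deposited.

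**Figure D3:**
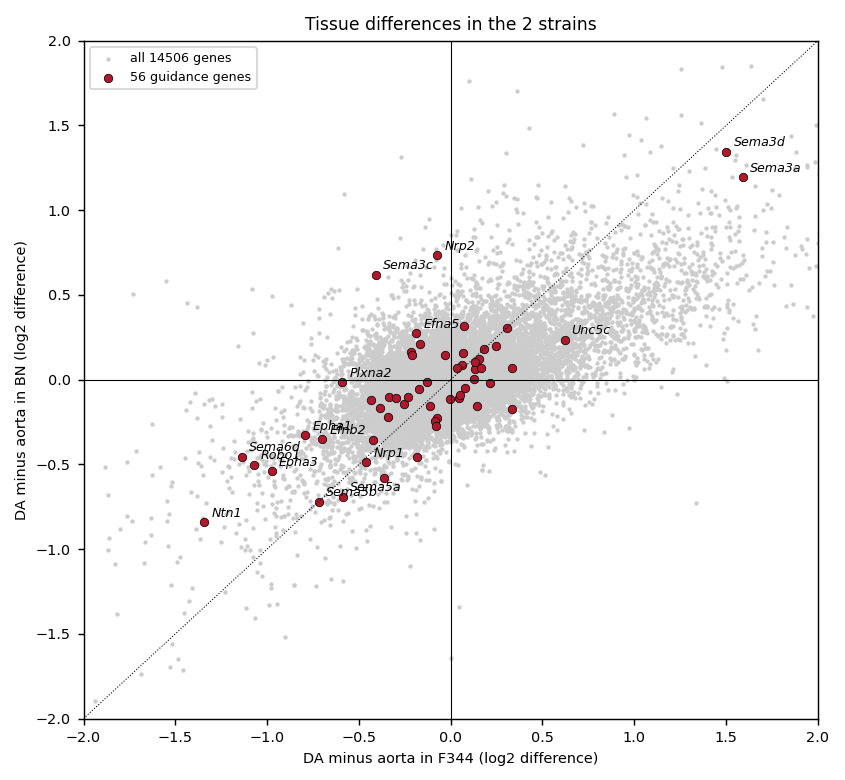
DA minus aorta (log2 difference) in F344 on the horizontal and in BN on the vertical axis. Red points are the 56 guidance genes, grey points all 14506 genes (those beyond 2 on either axis are not drawn), and the dotted line marks equal differences. Sema3a and Sema3d lie at the upper right, Ntn1 at the lower left, and Sema3c and Nrp2 at the upper left.

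Strains were compared within each tissue. In DA, 3 guidance genes (5.36%) were called between BN and F344, against 4.53% of all genes, and all 3 were higher in BN (background 2.43%): Epha3, Efna5 and Sema3c. Epha3 was higher by 0.93 ± 0.15 SE in BN DA (1.91-fold, limma adjusted p = 0.0153), with every BN DA array above every F344 DA array. Efna5, which encodes ephrin-A5, a ligand of the Epha3 product, was at 8.26 and 8.69 in BN DA, against 7.71 and 7.65 in F344 DA, and at 8.14 and 8.26 in BN aorta, against 8.04 and 7.71 in F344 aorta. BN arrays thus lay above F344 arrays in both tissues, by 0.79 ± 0.17 SE in DA (1.73-fold, adjusted p = 0.0352) and by 0.33 ± 0.17 SE in aorta (adjusted p = 0.998). Sema3c was higher by 0.62 ± 0.12 SE in BN DA (1.54-fold, adjusted p = 0.0288), at the values given above. All 3 calls were lost without either F344 DA array. Of the 3, only Epha3 stayed called without either F344 aorta array, and Epha3 and Sema3c without either BN aorta array. Without either BN DA array the count rose, although Sema3c (without replicate 1) or Efna5 (without replicate 2) lost its call. The number called among all genes in these fits is not given here. No change particular to the guidance genes can be read from these counts. Centring on brighter genes, which moved the median difference of all genes to -0.15 and the genes called higher and lower in BN DA to 119 and 383, against 353 and 304 as deposited, left Epha3 as the only guidance gene called.

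In aorta, 0 guidance genes were called between BN and F344 in limma, against 0.159% of all genes. At an unadjusted p under 0.05 were 757 of all 14506 genes, among them 6 guidance genes. The 3 with the smallest p were Ephb6, an Eph receptor gene whose kinase is inactive (-0.49 ± 0.13 SE, adjusted p = 0.414), Epha3 (0.50 ± 0.15 SE, adjusted p = 0.503) and Sema3c (-0.41 ± 0.12 SE, adjusted p = 0.566). In the average of both tissues, 2 guidance genes (3.57%) were called, against 2.65% of all genes, and both were higher in BN (background 1.63%): Epha3 by 0.72 ± 0.10 SE (limma adjusted p = 0.012) and Efna5 by 0.56 ± 0.12 SE (adjusted p = 0.0481). Sema3e came next, lower in BN by -0.45 ± 0.10 SE (adjusted p = 0.0563). After repeated quantile normalization 1 was called higher, Epha3, and 2 lower, Ephb6 and Sema3e. After centring 1 was called, Epha3, and the genes called higher and lower in BN numbered 79 and 132, against 236 and 148 as deposited. The 2 calls of guidance genes in this average were lost without either F344 DA array and without F344 aorta replicate 2. Epha3 alone was called without F344 aorta replicate 1 or either BN aorta array. More guidance genes were called without either BN DA array. The number called among all genes in these fits is not given here, so no change particular to the guidance genes can be read.

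**Figure D4:**
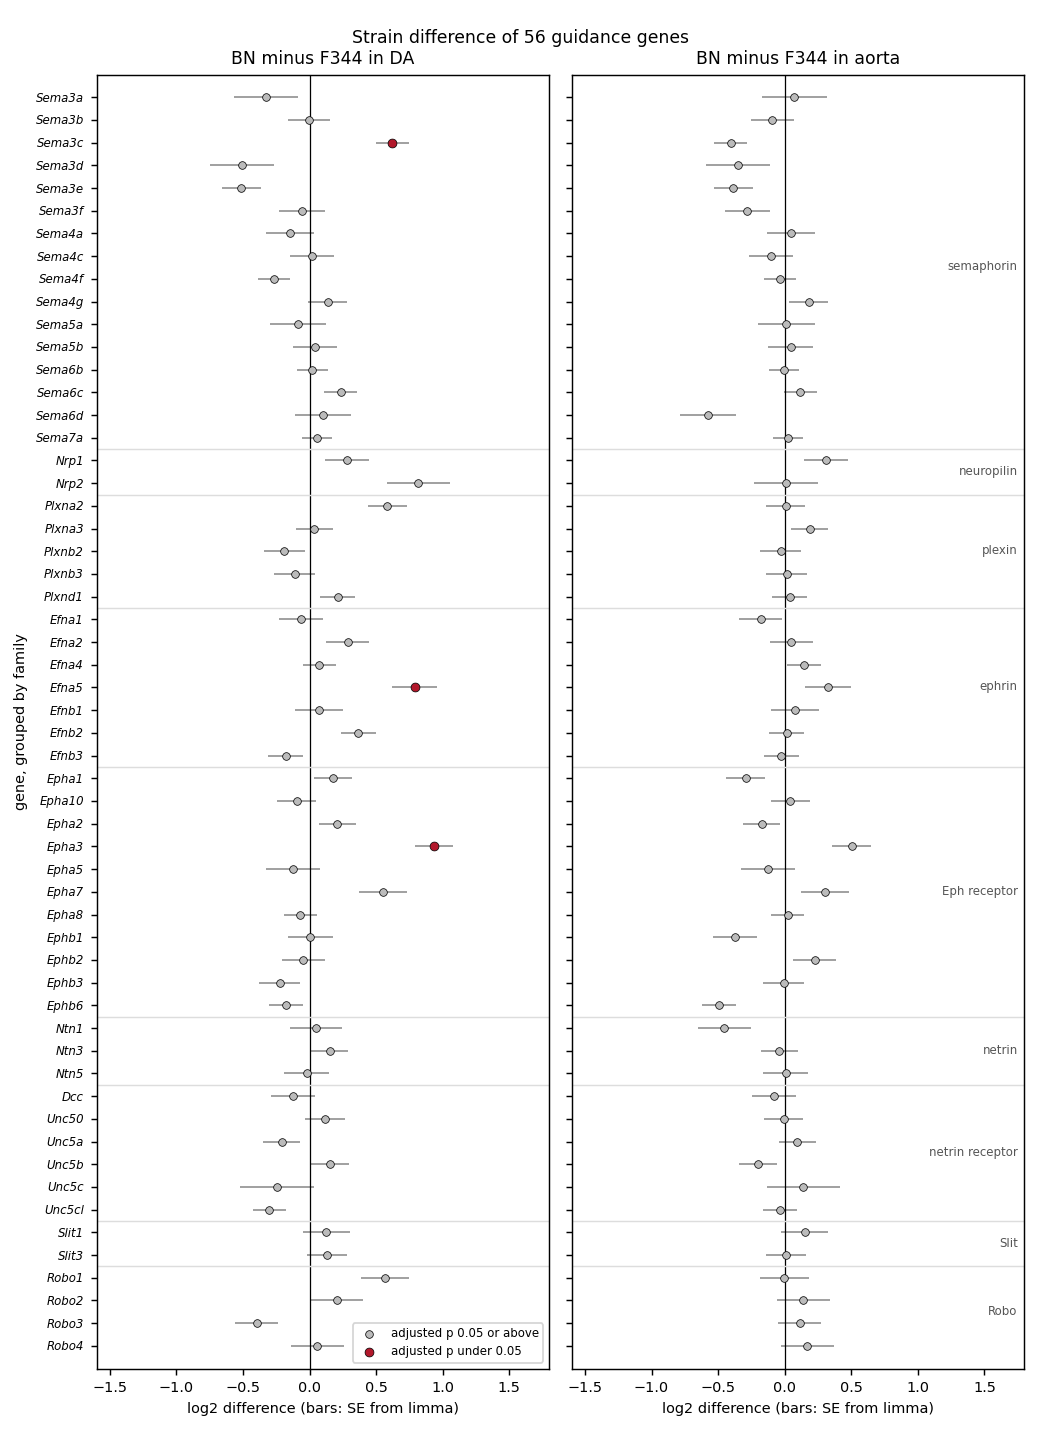
BN minus F344 in DA (left) and aorta (right) for the 56 guidance genes. The horizontal axis is the log2 difference, bars are SE from limma and red points have an adjusted p under 0.05. Epha3, Efna5 and Sema3c are called in DA, at 0.93, 0.79 and 0.62, and 0 genes are called in aorta.

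Dependence of the tissue difference on strain was examined through the interaction, (DA minus aorta in BN) minus (DA minus aorta in F344). Limma called 0 guidance genes and 0% of all genes. At an unadjusted p under 0.05 were 1403 of all 14506 genes, among them 5 guidance genes. The 3 with the smallest p were Sema3c (1.03 ± 0.18 SE, unadjusted p = 0.00022, adjusted p = 0.22), Plxna2, a receptor of Sema3c (0.58 ± 0.20 SE, unadjusted p = 0.0198, adjusted p = 0.437), and Nrp2, its co-receptor (0.81 ± 0.34 SE, unadjusted p = 0.039, adjusted p = 0.479). For all 3, the BN DA arrays lay above both F344 DA arrays. Without BN DA replicate 2 the interaction of Sema3c was called.

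Partners and intracellular effectors of these receptors were followed in a list of 75 genes outside the member families, of which 62 were tested. In F344, 3 were higher in DA and 7 lower (16.1% called, near the 14% of all genes), and their median difference was -0.13, against -0.04 for all genes. The kinase gene Pak1, an effector of Rac and Cdc42, was lower by -0.88 ± 0.13 SE (limma adjusted p = 0.00316) and the Rac activator gene Tiam1 by -0.65 ± 0.14 SE (adjusted p = 0.0152), while Met, the receptor of hepatocyte growth factor and a partner of plexins, was higher by 0.93 ± 0.21 SE (adjusted p = 0.0166) and Lrrc4c, a netrin-G ligand gene, by 0.80 ± 0.15 SE (adjusted p = 0.00854). In BN, 0 were higher and 2 lower in DA (3.23%, against 1.81% of all genes), Pak1 by -0.63 ± 0.13 SE (adjusted p = 0.0492) and the cell adhesion gene Cntn2 by -0.64 ± 0.11 SE (adjusted p = 0.028), with a list median of -0.04. Met was not called in BN, although its DA arrays (9.079 and 8.364) lay above its aorta arrays (7.795 and 7.813). The BN values of Lrrc4c overlapped between DA and aorta. Between the strains, 3 were higher and 1 lower in BN DA than in F344 DA (6.45%, against 4.53% of all genes). Vegfa, a ligand of neuropilin-1, was at 8.91 and 9.45 in BN DA, against 8.10 and 7.97 in F344 DA (1.14 ± 0.18 SE, adjusted p = 0.015). Its receptor gene Flt1 was at 9.35 and 9.58 in BN DA, against 8.88 and 8.75 in F344 DA (0.65 ± 0.13 SE, adjusted p = 0.0288). For both genes the BN arrays were above the F344 arrays. Srgap2, which encodes a Slit-Robo GTPase-activating protein (0.51 ± 0.12 SE, adjusted p = 0.0476), and Cntn2 (-0.57 ± 0.11 SE, adjusted p = 0.0284) were also called. In aorta and for the interaction limma called 0 effector genes, and 8 and 7 had an unadjusted p under 0.05, against 757 and 1403 of all 14506 genes.

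Several cell type marker lists moved with these comparisons, and their part in the guidance gene differences was not tested. In bulk tissue, fewer cells of a type and less RNA per cell cannot be told apart. Of 11 endothelial markers, 0 were called in BN, with array means between 8.82 and 9.01 in BN DA, against 8.84 and 8.90 in BN aorta. In F344, 0 were higher and 6 lower, with means of 8.48 and 8.40 in DA and 9.05 and 8.91 in aorta, the comparison in which Efnb2 was called lower. Between BN DA and F344 DA, 10 of the 11 had a difference above 0, with a median of 0.45, 6 had an unadjusted p under 0.05 and 1, Sox17, was called, higher in BN, the comparison in which Epha3, Efna5, Sema3c, Vegfa and Flt1 were called. Of 6 lymphatic endothelial markers, 4 (Prox1, Lyve1, Flt4 and Ccl21) were higher in BN DA than in F344 DA and 0 lower, with means of 8.24 on both BN DA arrays, against 6.94 and 7.04 in F344 DA, the comparison in which Sema3c was called and Nrp2 had its difference of 0.82 ± 0.24 SE (limma adjusted p = 0.0801). All 6 were also above 0 for DA minus aorta in BN (median 0.58), while 5 were below 0 in F344, and 0 were called in either strain. For the interaction, all 6 lymphatic markers (median 0.84) and all 11 endothelial markers (median 0.54) were above 0, and 0 were called. Of 6 fibroblast markers, 2 were lower in DA in BN and 3 in F344. Their means were 10.16 and 10.37 in BN DA, against 10.70 and 10.64 in BN aorta, and 10.06 and 9.91 in F344 DA, against 10.64 and 10.53 in F344 aorta. Of 12 neuronal markers 1 was called, Syt1, higher in F344 DA, and array means lay between 6.37 and 6.55 in BN DA, 6.20 and 6.46 in BN aorta, 6.43 and 6.47 in F344 DA, against 6.18 and 6.20 in F344 aorta. Of 7 Schwann cell markers 1 was called, Fabp7, higher in F344 DA, with means of 6.49 and 6.47 in F344 DA, against 6.25 and 6.28 in F344 aorta. Of 8 macrophage markers, 0 were called in BN and 2 were lower in F344 DA. Between DA and aorta, all 8 were below 0 in F344 (median -0.47) and 7 in BN (median -0.35). Between BN DA and F344 DA, 7 were above 0 (median 0.42), 4 had an unadjusted p under 0.05 in limma and 0 were called. Between BN and F344 aorta all 8 were above 0 (median 0.41) and 0 were called. In the average of both tissues 1 was called, higher in BN. Of 7 cardiomyocyte markers 0 were called in limma in any comparison. An unadjusted p under 0.05 was found for 3 between BN DA and BN aorta, and for 3 between BN DA and F344 DA. Means were 6.96 and 7.49 in BN DA, against 6.74 and 6.99 in BN aorta. On BN DA replicate 2, Tnnt2 was at 9.2 and Actc1 at 9.7, against 7.5 and 8.0 on replicate 1. All 6 smooth muscle markers had a difference above 0 between DA and aorta in both strains, the direction of Sema3a and Sema3d, with a median of 0.25 in BN and 0.23 in F344. Their means were 12.19 and 12.05 in BN DA, against 11.97 and 11.82 in BN aorta, and 12.24 and 12.14 in F344 DA, against 11.94 and 11.92 in F344 aorta, with no overlap in either strain. Of the 6, 0 were called in BN, 1 (Cnn1) was higher in F344 DA, and 2 (Cnn1 and Tagln) were higher in the average of both strains. Of 8 thymocyte and lymphocyte markers 1, Cd4, was called, higher in BN DA than in F344 DA and lower in F344 DA than in F344 aorta. Of 5 erythroid markers 0 were called in limma within a strain or tissue, with 0 at an unadjusted p under 0.05, and replicate 1 had the higher mean of each pair, at 9.72 against 8.15 in BN DA.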

How the data were processed

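Total RNA from pooled tissues was hybridized to 8 one-colour arrays, 2 in each of 4 groups given by the sample titles. The deposited log2 values were made by the authors with RMA, a method that in its standard form corrects background, normalizes between arrays and summarizes probe sets, per the submitters' processing notes; its version, settings and the build were not given in the sources used here, and the log2 scale was read from the values, 1.07 to 14.15. Values were used as deposited. Of 29215 probe sets, 15310 had 1 symbol in the 2016 platform annotation, 323 several and 13582 none, and the probe set with the highest mean was kept per gene, leaving 14506. Of the 56 members, 55 matched RefSeq (GRCr8) by Entrez identifier. Limma (version 3.58.1, R version 4.3.3) fitted a mean for each group to all arrays (4 residual and 5.2 prior degrees of freedom), two-sided, with Benjamini-Hochberg adjustment over all genes. The fit was checked on simulated data.

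Named with values are members called in a comparison within 1 strain or tissue or in the interaction, members called only in an average, the 3 smallest p where fewer than 3 were called, partners of these, and the called effectors with the largest differences, up to 4 a comparison; further members of a family named beside these were chosen after their values were seen. Members and lists were chosen with earlier results of these data known. Alternatives were repeated quantile normalization, centring on brighter genes, leaving out dim genes, the mean of probe sets, a variance trend, weights for arrays, the replicate block, fits with the 4 arrays compared, and each array left out.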

Additional observations from a re-analysis of the deposited data

Results flagged for a closer look

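In 4 guidance genes, a difference had opposite signs in the 2 strains or tissues with no overlap of arrays. For Sema3c this held for DA against aorta in BN and F344 and for BN against F344 in DA and aorta, with an interaction of 1.03 ± 0.18 SE (limma adjusted p = 0.22). For the others it held for BN against F344, higher in DA and lower in aorta for Epha1 (interaction 0.47 ± 0.20 SE, adjusted p = 0.507) and Epha2 (0.38 ± 0.19 SE, adjusted p = 0.567), and lower in DA and higher in aorta for Robo3 (-0.51 ± 0.23 SE, adjusted p = 0.515). None of these interactions passed the adjusted test in limma. The means over all arrays of Epha1, Epha2 and Robo3 were 6.69, 6.91 and 5.60, below that of the median gene (7.48). An unadjusted interaction p under 0.05 was found for 5 guidance genes and for 1403 of all 14506 genes. The share of all genes with opposite signs and no overlap was not computed. The 4 genes are therefore a description and not a result about the guidance genes as a set.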

How the results depend on the processing

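Of 16 calls of single guidance genes, tried under 255 combinations with an alternative, 187 stayed called, 68 were lost and 0 changed direction. The counts of guidance genes that follow are given without the number called among all genes. That number also moved under both scalings, and is not given here for the other alternatives. Whether a change is particular to the guidance genes therefore cannot be read from these counts. The number called for DA minus aorta in F344 was 10, and 17 with array weights and 16 with the 4 F344 arrays alone. For DA minus aorta in BN it was 3, and 1 with array weights and 0 with the 4 BN arrays alone. For BN minus F344 in DA it was 3, and 1 after centring, 1 with array weights and 0 with the 4 DA arrays alone, and for BN minus F344 averaged over tissues it was 2, and 1 after centring. With each array left out in turn the counts ranged from 4 to 14 in F344, 0 to 8 in BN, 9 to 17 in the average of both strains, 0 to 6 between strains in DA, 0 to 0 in aorta, 0 to 5 in the average of both tissues, and 0 to 1 for the interaction, where Sema3c was called without BN DA replicate 2; the lone array of a group is then assumed to vary like the others. Correlations of replicate deviations between groups lay between 0.15 and 0.52 for 5 of 6 pairs of groups and at 0.03 for BN DA with F344 aorta; the numbers were not treated as pairs, since the labels do not tie them to a shared source and not every pair passed 0.1, which does not show that they share nothing. With the replicate block 5 genes were called in BN (adding Ntn1 and Sema5b, lower in DA), 5 between strains in DA (adding Plxna2 and Sema3e), 12 in F344 (adding Ephb6 and Sema3c), 15 and 3 in the averages, and 0 in aorta and for the interaction. The cause of these changes was not tested.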
